A study of Mus musculus with 2 samples.

Results

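Interleukin-18 and its receptor were followed as 4 genes out of the 32285 in the count tables: *Il18*, the cytokine, *Il18r1* and *Il18rap*, the chains of its receptor, and *Il18bp*, its soluble inhibitor. The genes were picked from measured values of these same libraries, because both receptor genes were higher in PEP-619WW than in PEP-WT CD4 T cells, so that difference is described here and was not tested. PEP-WT mice were C57BL/6 mice with the wild type *Ptpn22* gene, and PEP-619WW mice were C57BL/6 mice in which genome editing with CRISPR/Cas9 had introduced the murine counterpart of the pro-autoimmune *PTPN22* allele. By the study's methods both genotypes had been infected with LCMV-cl13, an arenavirus variant that sets up a chronic infection in mice. Spleens were taken 8 days after infection, the cells of 4 to 5 age and sex matched mice were pooled within each genotype, and live CD45+ cells were sorted for the 10x Genomics 3′ assay. No library labelled as uninfected was analysed here. With 1 pooled library per genotype and run there was no replicate, no test between genotypes was possible, and every interval covers counting error only.

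IL-18 is a cytokine of the IL-1 family that macrophages and other cells hold as an inactive precursor until caspase-1, in an inflammasome, cleaves it. The mature cytokine binds IL-18R1, the complex then recruits IL-18RAP, and both chains together signal through MyD88 and IRAK kinases to NF-κB, which in T cells and NK cells, together with IL-12, drives the production of interferon gamma. IL-18BP is a secreted decoy that holds the mature cytokine away from its receptor, and its gene is itself induced by interferon gamma.

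The deposited tables formed 2 runs, each with 1 PEP-WT and 1 PEP-619WW table, and the relation between the runs was not given in the sources used here. Run 1 held 14821 PEP-WT and 8576 PEP-619WW barcodes with medians of 2832 and 3293 unique molecular identifiers (UMIs, each 1 captured transcript), and run 2 held 9539 and 11029 barcodes with medians of 4837 and 3611. The barcode numbers of run 2 are those in the methods of the study. The sample labels named liver, a human T cell line and tumor infiltrating cells, whereas the series design and the methods named spleen. Of 5 hepatocyte markers, *Alb* was at 0 in every gate of the rule, and the summed level of the list was at most 0.0806 CPM, the UMIs of a gene per 1000000 UMIs of the gate. Run 2 stood apart from run 1. At least 3 of 6 melanocyte genes were found in 431 barcodes of its PEP-WT table and 44 of its PEP-619WW table, against 0 and 0 in run 1, and the PEP-WT library of run 2 held 1 barcode in the B cell gate against 6442 in run 1. The runs were therefore kept apart, and results are from run 1 unless run 2 is named. Pairs of libraries shared between 19 and 49 barcode sequences. The *Ptpn22* transcript lay between 19.4 and 94.7 CPM in the 4 libraries, but 3′ tags do not read the edited codon and cannot check the genotype.

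Cells were gated by their UMIs: CD4 T (*Cd3e* and *Cd4*), CD8 T (*Cd3e* and *Cd8b1*) and NK (*Ncr1* without *Cd3e*) at 1 UMI or more, and monocytes or macrophages at 5 or more of *Lyz2*. In run 1 the gates took 361 PEP-WT and 261 PEP-619WW CD4 T barcodes, 1439 and 953 CD8 T barcodes, 77 and 37 NK barcodes, and 1600 and 1236 *Lyz2* barcodes. In run 2 the PEP-WT library gave 12 CD4 T, 28 CD8 T and 2 NK barcodes, too few to set a level, while the PEP-619WW library gave 438, 394 and 466. The *Lyz2* gate was not pure: in run 1, 23.7% of its barcodes in PEP-WT against 33.5% in PEP-619WW also met the gate for neutrophils (*S100a8* and *S100a9* at 10 or more, no *Csf1r*).

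The receptor genes lie side by side. In GRCm38 (GENCODE M21), *Il18r1* (ENSMUSG00000026070) spans chr1:40465552-40500854 and *Il18rap* (ENSMUSG00000026068) spans chr1:40515362-40551705, both on the plus strand and 14507 bases apart. They close a cluster of IL-1 receptor genes on the same strand, and *Il1rl1*, which encodes the IL-33 receptor, ends 136 bases before *Il18r1* begins. *Il18* (ENSMUSG00000039217, chr9:50554827-50581840, plus strand) overlaps *Bco2* and *Tex12* on the other strand, and *Il18bp* (ENSMUSG00000070427, chr7:102014885-102018690, minus strand) overlaps *Numa1* on the other strand by 80 bases. How the counting treated strand was not given in the sources used here, so UMIs of *Il18* and *Il18bp* from these overlaps cannot be told apart.

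Because the receptor genes are neighbours and were both higher in PEP-619WW, the bases just before each start are shown, taken from the RefSeq promoter table (GRCm38.p6, plus strand, 4 of 4 members matched). The stretch before *Il18r1*, chr1:40465416-40465551, is the whole of the gap to *Il1rl1*, and the stretch before *Il18rap*, chr1:40515112-40515361, is 250 bases long.
Il18r1: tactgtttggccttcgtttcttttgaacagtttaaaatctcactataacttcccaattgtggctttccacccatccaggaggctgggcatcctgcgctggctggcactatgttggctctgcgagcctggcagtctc
Il18rap: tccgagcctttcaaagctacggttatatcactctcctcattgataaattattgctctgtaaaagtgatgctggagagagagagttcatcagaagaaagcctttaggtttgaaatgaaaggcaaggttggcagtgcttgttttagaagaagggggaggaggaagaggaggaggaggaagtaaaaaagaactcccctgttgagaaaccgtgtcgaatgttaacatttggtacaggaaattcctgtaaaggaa
All letters are in lower case, as neither stretch holds, on either strand, the T-box letters AGGTGTGA, the STAT letters TTCNNNGAA, the AP-1 letters TGANTCA, the Runx letters TGTGGT or the IRF element searched. Among 27025 promoters cut to the same length as that of *Il18rap*, these letters occur in 1.14%, 7.18%, 6.87%, 14.2% and 3.04%, in the order named. No match says only that these letters are not in these windows.

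*Il18* was highest in macrophages. In run 1 it stood at 48.4 CPM in PEP-WT (95% exact Poisson interval 45.04 to 52.0, 755 UMIs) and 28.0 CPM in PEP-619WW (25.3 to 31.1, 370 UMIs) in the *Lyz2* gate. In barcodes with *Vcam1* and *C1qa*, genes of the red pulp macrophages of the spleen, it stood at 68.8 CPM (62.6 to 75.4) and 41.2 CPM (36.4 to 46.6). The T cell gates held less, with 19.0 CPM in PEP-WT and 10.8 CPM in PEP-619WW for CD8 T. The CD4 T gate held 19.1 and 14.3 CPM, and the B cell gate 8.95 and 6.15 CPM. The T cell gates overlapped with the *Lyz2* gate. That overlap took up 9.87% (PEP-WT) and 9.55% (PEP-619WW) of the CD8 T gate, and 9.14% and 6.90% of the CD4 T gate. Its part in the *Il18* levels of the T cell gates, or in their difference between genotypes, was not tested. The red pulp gate thus had the highest level in both genotypes, its interval did not meet that of the *Lyz2* gate, and the conventional dendritic, plasmacytoid dendritic and T cell gates could not be ordered, their intervals all overlapping within a genotype.

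The cytokine gene was lower in PEP-619WW in the macrophage, CD8 T, B cell, plasma cell and neutrophil gates of run 1 and over all its barcodes (log2 ratio -0.43, -0.57 to -0.30), while the interval in the CD4 T gate, -1.02 to 0.18, held 0. The log2 ratio of PEP-619WW to PEP-WT was -0.79 (95% exact conditional interval -0.97 to -0.61) in the *Lyz2* gate, with 2.39% of 11052 genes as low or lower, and -0.74 (-0.96 to -0.51) in the red pulp gate. Within the *Lyz2* gate it was -0.50 (-0.77 to -0.24) in the *Vcam1* and *C1qa* barcodes, -1.36 (-2.43 to -0.37) in those that met the neutrophil gate and -0.95 (-1.22 to -0.68) in the rest. The gene was lower in each of the 3 subsets. With the same mix of subsets in both genotypes the log2 ratio was -0.75, and the part of the mix in the difference was not tested. The neutrophil markers summed to 25045 CPM in the PEP-WT and 39443 CPM in the PEP-619WW *Lyz2* gate, and in the same gate with *Csf1r* and without *Ly6g* *Il18* was 59.6 CPM in PEP-WT and 36.2 CPM in PEP-619WW.

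In run 2 no difference was detected over the whole gate. *Il18* was 35.8 CPM (34.3 to 37.3, 2219 UMIs) in PEP-WT and 34.7 CPM (32.8 to 36.8, 1190 UMIs) in PEP-619WW in the *Lyz2* gate, and the interval of the log2 ratio, -0.14 to 0.06, held 0. The subsets of run 2 pointed in different ways, with a log2 ratio of -0.56 (-1.12 to -0.04) in the *Vcam1* and *C1qa* barcodes and 0.43 (0.30 to 0.56) in the rest. The *Vcam1* and *C1qa* barcodes were 34.5% of the PEP-WT but 2.05% of the PEP-619WW gate there. With the same mix of subsets in both genotypes the log2 ratio of run 2 was 0.15.

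*Il18bp* was also highest in macrophages, where it was higher in PEP-619WW in run 1. In run 1 it was 109 CPM (101 to 117) in PEP-WT and 130.1 CPM (121 to 139) in PEP-619WW red pulp barcodes, and 78.2 CPM (73.9 to 82.7, 1219 UMIs) and 95.04 CPM (89.9 to 100.4, 1254 UMIs) in the *Lyz2* gate. The log2 ratio in the *Lyz2* gate was 0.28 (0.17 to 0.40), with 12.3% of genes as high or higher. Within that gate the inhibitor was higher in PEP-619WW in the *Vcam1* and *C1qa* barcodes, with 120 CPM against 175 CPM, while the remaining barcodes were at 60.6 and 63.2 CPM with overlapping intervals. In the neutrophil gate the order turned, with 73.7 CPM in PEP-WT and 52.4 CPM in PEP-619WW. The T cell gates held 20.5 CPM in PEP-WT and 19.1 CPM in PEP-619WW (CD8) and 22.7 and 21.5 CPM (CD4), which did not differ beyond counting error.

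In run 2 *Il18bp* was 20.1 CPM (19.0 to 21.2, 1247 UMIs) in the PEP-WT and 10.0 CPM (9.0 to 11.2, 344 UMIs) in the PEP-619WW *Lyz2* gate, a log2 ratio of -1.001 (-1.18 to -0.83). The direction was thus opposite to that of run 1. The share of barcodes with a UMI was 12.8% and 5.5%, and it was 2.0% and 1.0% when each barcode was thinned to 1000 UMIs. The melanocyte markers summed to 188 CPM in the PEP-WT and 56.2 CPM in the PEP-619WW gate, and their part in the difference was not tested.

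*Il18r1*, which binds the cytokine, was highest in T cells and NK cells. In PEP-WT of run 1 its level was 139 CPM in the NK gate (104 to 184, 50 UMIs), 139 CPM in the CD8 T gate (133 to 146, 1933 UMIs) and 81.9 CPM in the CD4 T gate (72.5 to 92.3, 271 UMIs). In PEP-619WW it was 339.7 CPM in the NK gate (265 to 428, 71 UMIs), 245 CPM in the CD8 T gate (237 to 254, 3083 UMIs) and 208 CPM in the CD4 T gate (191 to 225, 580 UMIs). NK and CD8 T cells could not be ordered in PEP-WT, and in PEP-619WW the 3 gates had the order NK, CD8 T, CD4 T with intervals apart. That separation did not hold under other gates: without UMIs of another lineage the intervals of NK cells (348 to 602) and CD8 T cells (361 to 394) overlapped, and with the stricter gate those of NK (203 to 378), CD8 T (238 to 256) and CD4 T cells (197 to 244) all did. Within each genotype every other gate was below these, from 53.1 CPM in PEP-619WW red pulp barcodes to 3.33 CPM in PEP-WT B cells, and the erythroid and both dendritic gates held 0 to 5 UMIs each.

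*Il18rap*, the chain recruited to the bound complex, had a wider range of cell types. In PEP-WT of run 1 it was 223 CPM (177 to 278) in the NK gate, 91.3 CPM (80.3 to 103) in neutrophils, 91.0 CPM (86.0 to 96.1) in the CD8 T gate and 37.8 CPM (31.5 to 45.04) in the CD4 T gate. In PEP-619WW the same gates held 392.3 CPM (312 to 487), 117 CPM (105 to 129), 151 CPM (145 to 158) and 87.4 CPM (76.8 to 99.1). Neutrophils therefore stood level with CD8 T cells in PEP-WT and below them in PEP-619WW. The *Lyz2* gate held 29.4 CPM in PEP-WT and 46.4 CPM in PEP-619WW, B cells 3.20 and 8.73 CPM.

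**Figure D1:**
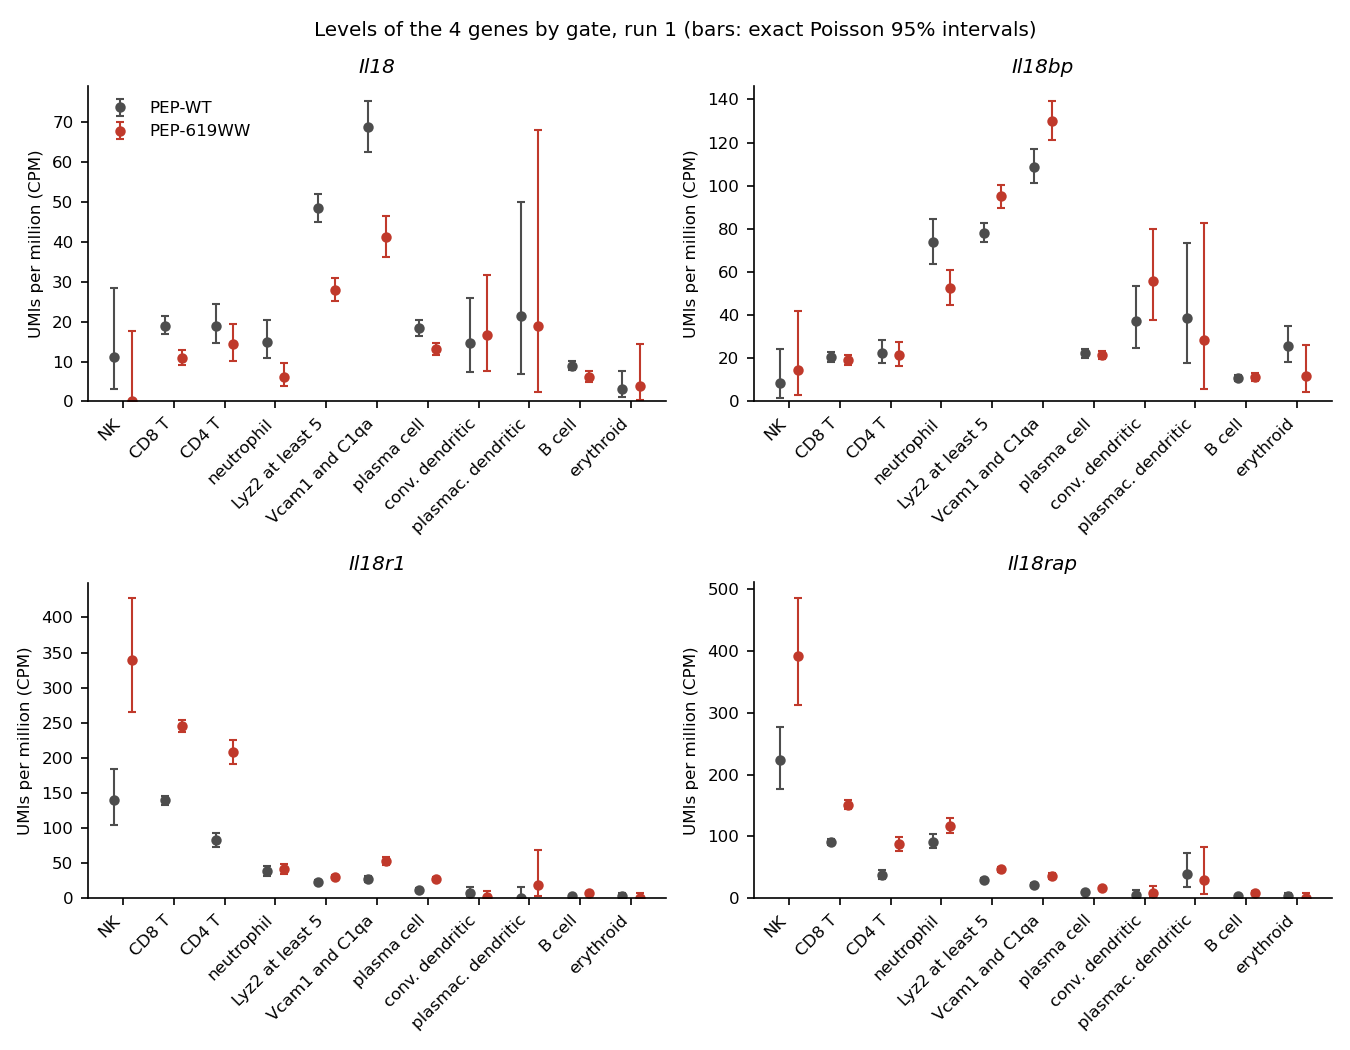
Levels in CPM (y axis) of the 4 genes in 11 gates of run 1 (x axis), PEP-WT in grey and PEP-619WW in red, with exact Poisson 95% intervals; the gates named by genes are the monocyte or macrophage gate and the red pulp gate. *Il18* and *Il18bp* peak in the *Vcam1* and *C1qa* gate at 68.8 and 130.1 CPM, and the receptor chains peak in the NK gate at 339.7 and 392.3 CPM.

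Both receptor genes were higher in PEP-619WW in the CD4 T, CD8 T and NK gates of run 1, and also in B cell, plasma cell and red pulp barcodes and over the whole library. The log2 ratio of *Il18r1* was 1.34 (1.13 to 1.56) in the CD4 T gate, the value the genes were chosen by, 0.82 (0.73 to 0.90) in the CD8 T gate and 1.28 (0.74 to 1.84) in the NK gate. The log2 ratio of *Il18rap* was 1.21 (0.89 to 1.53), 0.73 (0.63 to 0.84) and 0.81 (0.35 to 1.28) in the same gates. Outside them the log2 ratio of *Il18r1* was 0.96 (0.49 to 1.44) in B cells, 1.20 (0.98 to 1.42) in plasma cells, 0.97 (0.71 to 1.24) in red pulp barcodes and 1.04 (0.97 to 1.11) over all barcodes, and that of *Il18rap* was 1.45 (1.01 to 1.90), 0.71 (0.45 to 0.98), 0.75 (0.44 to 1.07) and 0.90 (0.82 to 0.98). None of these ratios is shown to be particular to T cells or NK cells. The B cell ratios rest on low levels. *Il18r1* was 3.33 CPM in PEP-WT and 6.49 CPM in PEP-619WW B cells, and *Il18rap* 3.20 and 8.73 CPM. That gate serves below as a measure of free RNA, whose part in its ratios was not tested. The gates share barcodes, as 22.1% of red pulp barcodes in PEP-WT against 18.6% in PEP-619WW, and 9.71% and 13.5% of plasma cell barcodes, also met the CD8 T gate. The plasma cell gate was met by 32.2% and 34.3% of red pulp barcodes. In the red pulp barcodes that also met the *Lyz2* gate the log2 ratio of *Il18r1*, 0.29 (-0.12 to 0.70), had an interval that held 0. That of *Il18rap* was 0.75 (0.32 to 1.19) there. In neutrophils the interval of *Il18r1*, -0.27 to 0.50, held 0. In the CD4 T gate 2 of the 4 members were past 2-fold, higher in PEP-619WW, where 1.04% of 8337 genes with at least 50 UMIs were higher and 1.34% lower past 2-fold; as the members were chosen on this contrast, nothing is read from it. The other members had log2 ratios of -0.41 (*Il18*) and -0.08 (*Il18bp*) there.

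In the CD8 T gate 0 of 4 members were past 2-fold, where 0.877% of 10838 genes were higher and 1.49% lower. There 1.62% of genes had a ratio at or above that of *Il18r1* and 2.21% at or above that of *Il18rap*. In the NK gate 1 of the 2 members with at least 50 UMIs was past 2-fold, *Il18r1*, where 2.62% of 1605 genes were higher and 4.36% lower, and 1.68% and 4.11% of genes were at or above the value of *Il18r1* and of *Il18rap*. *Il18* had 4 UMIs in the PEP-WT and 0 in the PEP-619WW NK gate, and *Il18bp* had 3 in each, so neither gave a ratio with a useful interval. The NK values rest on 77 and 37 barcodes.

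**Figure D2:**
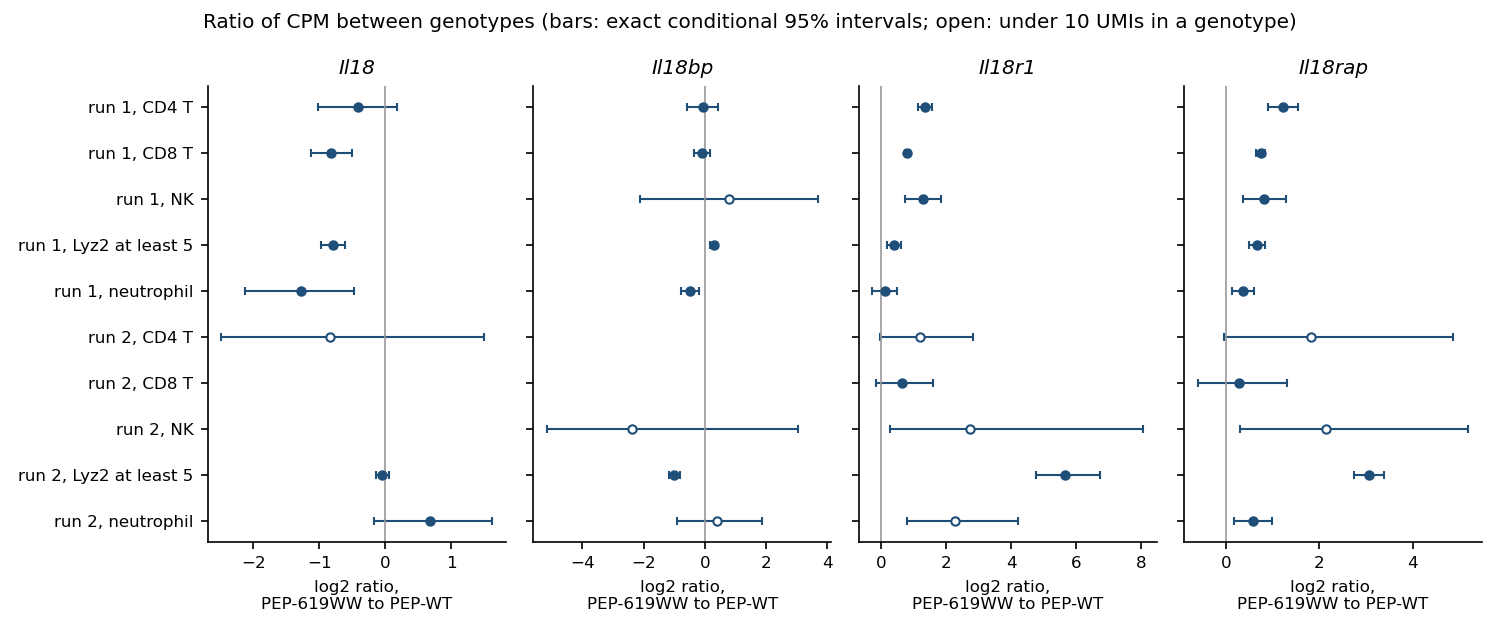
Log2 ratio of CPM, PEP-619WW to PEP-WT (x axis of each panel), for the 4 genes in 5 gates of both runs (rows), with exact conditional 95% intervals; open points have fewer than 10 UMIs in a genotype, rows without a point have 0 UMIs in a genotype, and the panels have different x ranges. In run 1 both receptor genes lie to the right of 0 in the CD4 T, CD8 T and NK gates, and *Il18* lies to the left at -0.79 in the *Lyz2* gate.

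Other cell types moved with the genotype inside these gates. The 4 erythroid markers summed to 1535 CPM in the PEP-WT and 85.2 CPM in the PEP-619WW CD4 T gate, and the 5 B cell markers to 512 and 250.3 CPM. In the NK gate the erythroid sum was 7754 and 354 CPM and the sum of 5 neutrophil markers 1152 and 14983 CPM. For CD8 T cells the erythroid sum was 1142 and 248 CPM and that of 4 plasma cell markers 3007 and 4468 CPM, and 7.71% and 14.1% of its barcodes also met the plasma cell gate. Their part in the ratios was not tested. Leaving out hemoglobin, immunoglobulin, mitochondrial and ribosomal protein genes from the totals gave a log2 ratio of 1.37 for *Il18r1* and 1.24 for *Il18rap* in the CD4 T gate and 1.31 and 0.84 in the NK gate. Without barcodes that carried UMIs of another lineage, *Il18r1* was 103 CPM in PEP-WT and 248 CPM in PEP-619WW CD4 T cells, 195 and 377 CPM in CD8 T cells, and 190 and 462 CPM in NK cells. With 2 or more UMIs of *Cd4* the CD4 ratio came out below 2-fold, at a log2 of 0.98 for *Il18r1* and 0.81 for *Il18rap*.

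Detection followed the levels. A UMI of *Il18r1* was found in 35.2% (30.3 to 40.4, exact binomial) of CD4 T barcodes in PEP-WT against 60.5% (54.3 to 66.5) in PEP-619WW, and in 57.3% (54.7 to 59.8) and 83.4% (80.9 to 85.7) of CD8 T barcodes. A UMI of *Il18rap* was found in 20.2% and 41.4% of CD4 T barcodes and in 46.8% and 73.3% of CD8 T barcodes. The PEP-619WW barcodes were deeper, with a median of 6963 against 4935 UMIs in the CD4 T gate and 8660 against 6038 in the CD8 T gate. Thinned to 1000 UMIs per barcode, with shallower barcodes left out, *Il18r1* was found in 8.8% (6.0 to 12.1) and 19.2% (14.6 to 24.5) of CD4 T barcodes and in 15.8% and 27.7% of CD8 T barcodes, so the difference was smaller in points and had the same direction. As a measure of free RNA, among B cells, with medians of 2567 and 3168 UMIs, *Il18r1* was found in 1.0% of barcodes in PEP-WT against 2.0% in PEP-619WW, or 0.3% and 0.6% when thinned to 1000 UMIs. Among PEP-WT erythroid barcodes, with a median of 2388 UMIs, it was found in 0.9%.

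Run 2 could not carry the T cell comparison. *Il18r1* had 5 UMIs in the 12 PEP-WT CD4 T barcodes (30.6 CPM, 9.9 to 71.5) and 294 UMIs in the 438 PEP-619WW barcodes (70.4 CPM, 62.6 to 78.9), and the interval of the log2 ratio, -0.04 to 2.83, held 0. In the CD8 T gate it was 46.7 CPM in PEP-WT (13 UMIs) and 73.6 CPM in PEP-619WW (228 UMIs), with an interval of -0.15 to 1.59. In the PEP-619WW library *Il18r1* was 181 CPM in NK cells, 73.6 CPM in CD8 T cells and 70.4 CPM in CD4 T cells, of which the last pair did not differ beyond counting error. Without UMIs of another lineage that pair was 89.9 CPM (76.1 to 105) and 108 CPM (93.4 to 125), so CD8 T and CD4 T cells had no fixed order. *Il18rap* in the same library was 238, 47.5 and 43.1 CPM.

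The receptor levels in the *Lyz2* gate depended on which barcodes were kept. In run 1, barcodes without a UMI of *Cd3e* or *Cd79a* held *Il18r1* at 5.18 CPM in PEP-WT (34 UMIs) and 11.9 CPM in PEP-619WW (68 UMIs), against 22.5 and 29.7 CPM in the whole gate. *Il18rap* was close to its level in the whole gate or above it, with 29.2 CPM against 29.4 CPM in PEP-WT and 53.8 CPM against 46.4 CPM in PEP-619WW. In barcodes with *Csf1r* and without *Ly6g* each chain was at 16.6 CPM in PEP-WT, and *Il18r1* was at 24.3 CPM and *Il18rap* at 24.6 CPM in PEP-619WW. *Il18rap* was 90.6 and 124 CPM in the barcodes of the *Lyz2* gate that met the neutrophil gate. The log2 ratios over the whole *Lyz2* gate of run 1 were 0.40 (0.19 to 0.61) for *Il18r1* and 0.66 (0.48 to 0.83) for *Il18rap*, so that 0 of 4 members were past 2-fold, where 1.11% of 11052 genes were higher and 1.28% lower. Without the barcodes with *Cd3e* or *Cd79a* the log2 ratio of *Il18r1* was 1.20, on 34 and 68 UMIs, and that of *Il18rap* 0.88. No share of all genes past 2-fold is given for that setting, so no call is made from it. The B cell gate, the measure of free RNA above, held *Il18r1* at 3.33 CPM in PEP-WT and 6.49 CPM in PEP-619WW. The part of free RNA in the ratio was not tested.

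In the *Lyz2* gate of run 2 the receptor genes had few UMIs in PEP-WT. *Il18r1* had 10 UMIs in 6488 PEP-WT barcodes (0.16 CPM) and 282 UMIs in 4919 PEP-619WW barcodes (8.23 CPM), and *Il18rap* had 98 UMIs (1.58 CPM) and 450 UMIs (13.1 CPM). Past 2-fold and higher in PEP-619WW were *Il18r1* and *Il18rap*, 2 of 4 members, where 12.5% of 12364 genes were higher. *Il18bp*, 1 of 4, was lower and at the very edge of that limit, where 8.94% of genes were lower. *Il18r1*, with 10 UMIs in PEP-WT, met the UMI minimum, set over both genotypes, by its PEP-619WW UMIs. Its place in the count thus rests on the difference itself, while *Il18rap* had 98 UMIs in PEP-WT. The T cell markers summed to 8.5 CPM in the PEP-WT and 183 CPM in the PEP-619WW gate and the NK markers to 5.9 and 68.0 CPM, and their part in the difference was not tested. Without barcodes with a UMI of *Cd3e* or *Cd79a* *Il18r1* was 0.15 and 3.60 CPM and *Il18rap* was 1.54 and 11.3 CPM.

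The balance of the chains differed between cell types. *Il18rap* made up 31.6% (27.0 to 36.4) of the receptor UMIs of PEP-WT and 29.6% (26.5 to 32.9) of those of PEP-619WW CD4 T cells, 39.5% and 38.1% in CD8 T cells, and 61.5% (52.6 to 69.9) and 53.6% (45.4 to 61.7) in NK cells. Neutrophils had the highest share among these gates, 70.7% (65.7 to 75.4) in PEP-WT and 74.0% (70.0 to 77.8) in PEP-619WW. The intervals of the genotypes overlapped in each of these 4 gates, whereas those of CD4 T, CD8 T and neutrophil gates were apart from each other in both genotypes. In plasma cell barcodes the genotypes were apart, with 44.2% (39.4 to 49.1) in PEP-WT and 36.1% (33.0 to 39.3) in PEP-619WW. UMIs at the 3′ end do not compare transcript numbers between genes, so the share says how the balance shifts from gate to gate, not which chain is more abundant.

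In PEP-619WW of run 2 the share was again lowest in T cells and highest in neutrophils among these 4 gates, though its CD4 T and CD8 T intervals overlapped. *Il18rap* was 38.0% (33.6 to 42.5) of receptor UMIs in PEP-619WW CD4 T cells, 39.2% (34.2 to 44.3) in CD8 T cells and 56.8% (53.5 to 60.1) in NK cells. In neutrophils it was 94.5% (86.6 to 98.5) in PEP-WT and 84.2% (79.1 to 88.5) in PEP-619WW. In neutrophils without a UMI of *Cd3e*, *Cd79a* or *Ncr1*, a setting chosen after the data were seen, *Il18rap* was 112 CPM in PEP-WT and 153 CPM in PEP-619WW of run 1 and 85.3 and 129.6 CPM in run 2, while *Il18r1* was 21.2 and 32.6 CPM in run 1 and 4.95 and 12.1 CPM in run 2. *Il18rap* was thus detected in neutrophils of all 4 libraries, and its level there was higher in PEP-619WW in both runs. Over the whole neutrophil gate, without that filter, its log2 ratios were 0.35 (0.12 to 0.59) in run 1 and 0.57 (0.17 to 0.98) in run 2.

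**Figure D3:**
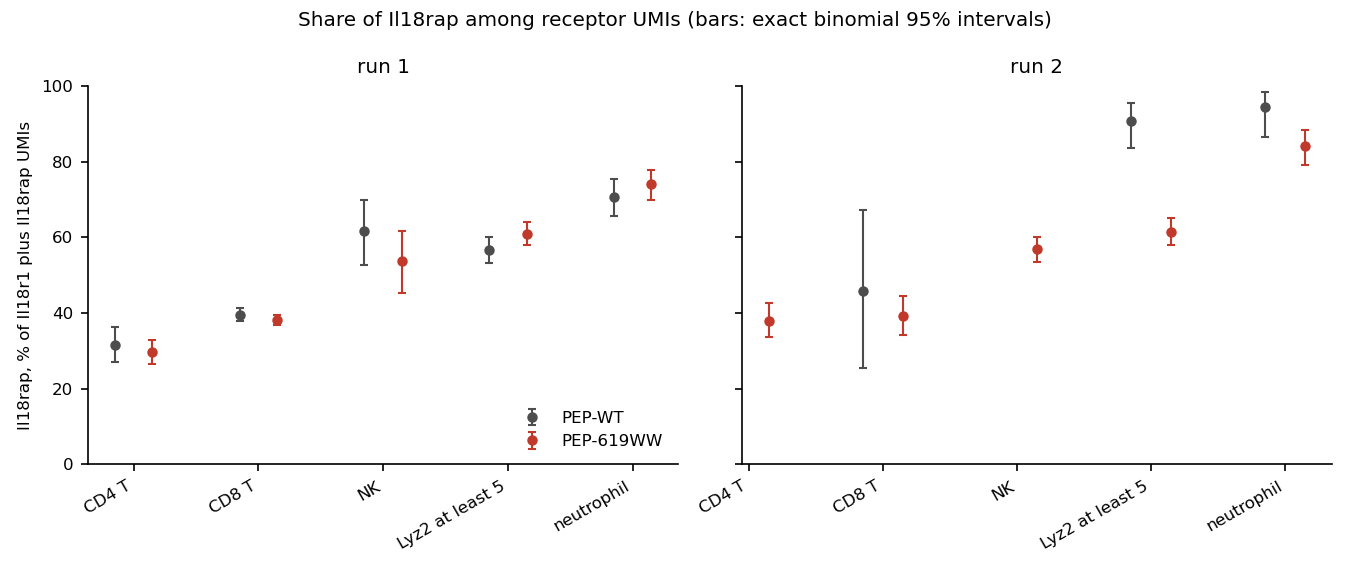
Share of *Il18rap* among the UMIs of both receptor genes in percent (y axis) by gate (x axis) for run 1 (left) and run 2 (right), PEP-WT in grey and PEP-619WW in red, with exact binomial 95% intervals; gates with fewer than 20 receptor UMIs have no point. In run 1 the share goes from 29.6% in PEP-619WW CD4 T cells to 74.0% in PEP-619WW neutrophils.

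Barcodes with a UMI of one chain held the other chain more often than those without. Among CD8 T barcodes of run 1, 70.0% (66.4 to 73.4) of PEP-WT barcodes with a UMI of *Il18rap* also had one of *Il18r1*, against 46.1% (42.5 to 49.7) of those without, and in PEP-619WW 90.4% and 64.2%. Among CD4 T barcodes the shares were 60.3% against 28.8% in PEP-WT and 87.0% against 41.8% in PEP-619WW. Barcodes with both chains were deeper, with a median of 8049 UMIs against 3857 for those with neither in PEP-WT CD8 T cells, and the part of depth in this was not tested. Both chains were detected in 12.2% of CD4 T barcodes in PEP-WT against 36.0% in PEP-619WW and in 32.7% and 66.3% of CD8 T barcodes.

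The CD4 T barcodes were split by UMIs of subset genes, each barcode going to the first that applied, and 3 subsets are described. Barcodes with *Foxp3*, the factor of regulatory T cells, held *Il18r1* at 24.1 CPM in PEP-WT (7 UMIs) and 83.0 CPM in PEP-619WW (13 UMIs). Those with *Cxcr5* or *Bcl6*, genes of follicular helper T cells, held 69.6 CPM (53.8 to 88.6) and 141 CPM (116 to 169.7). Those with *Ccl5*, *Nkg7* or *Cxcr6*, genes of effector T cells, held 100.4 CPM (85.5 to 117) and 267 CPM (242 to 293). Of these 3 subsets the effector barcodes had the highest level of *Il18r1* in PEP-619WW, with an interval apart from those of the follicular and *Foxp3* barcodes. Of the CD4 T gate 15.8% in PEP-WT and 17.2% in PEP-619WW also met the CD8 T gate. The part of these barcodes in the subset levels was not tested.

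*Il18rap* was likewise higher in effector than in follicular barcodes of PEP-619WW. It was 49.9 CPM in PEP-WT and 118 CPM in PEP-619WW effector barcodes (39.6 to 62.1 and 102 to 136), and 30.6 and 52.1 CPM in follicular barcodes (20.5 to 43.9 and 37.4 to 70.6). The log2 ratio between genotypes within effector barcodes was 1.41 (1.14 to 1.68) for *Il18r1* and 1.24 (0.85 to 1.63) for *Il18rap*, and within follicular barcodes 1.02 (0.57 to 1.48) and 0.77 (0.05 to 1.51). In *Foxp3* barcodes *Il18rap* had 9 UMIs in PEP-WT and 2 UMIs in PEP-619WW, too few to tell the genotypes apart. Effector barcodes were 36.0% of the gate in PEP-WT and 47.1% in PEP-619WW, follicular barcodes 25.5% and 27.2%, and *Foxp3* barcodes 4.43% and 6.9%. Such shares depend on depth, the PEP-619WW barcodes were deeper, and the part of depth in them was not tested.

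In both genotypes CD8 T barcodes with *Mki67*, a gene of dividing cells, had a lower CPM of *Il18r1* than effector barcodes without it. The *Mki67* barcodes held 112 CPM (105 to 119) in PEP-WT and 178 CPM (169 to 187) in PEP-619WW. Barcodes without *Mki67* but with *Gzma*, *Klrg1* or *Cx3cr1*, genes of cytotoxic effectors, held 213.5 CPM (194 to 234) and 402 CPM (376 to 430). The *Mki67* barcodes were deeper. In PEP-WT 539 of them held 987 UMIs of *Il18r1* among 8826647 UMIs, and 348 effector barcodes held 457 among 2140778. In PEP-619WW 412 held 1502 among 8454474, and 273 effector barcodes held 866 among 2151990. The lower CPM is thus not a lower number of *Il18r1* UMIs per barcode. *Il18rap* was 74.0 CPM (68.4 to 79.9) in PEP-WT and 109 CPM (102 to 116) in PEP-619WW *Mki67* barcodes, and 182 CPM (164 to 201) and 293 CPM (271 to 317) in the effector barcodes. Both chains were higher in PEP-619WW in both subsets, with log2 ratios of 0.67 (0.55 to 0.79) in *Mki67* and 0.91 (0.75 to 1.08) in effector barcodes for *Il18r1*, and of 0.56 (0.41 to 0.71) and 0.69 (0.51 to 0.88) for *Il18rap*. *Mki67* barcodes were 37.5% of the gate in PEP-WT and 43.2% in PEP-619WW, and the effector barcodes 24.2% and 28.6%. These shares depend on depth too, and its part in them was not tested.

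**Figure D4:**
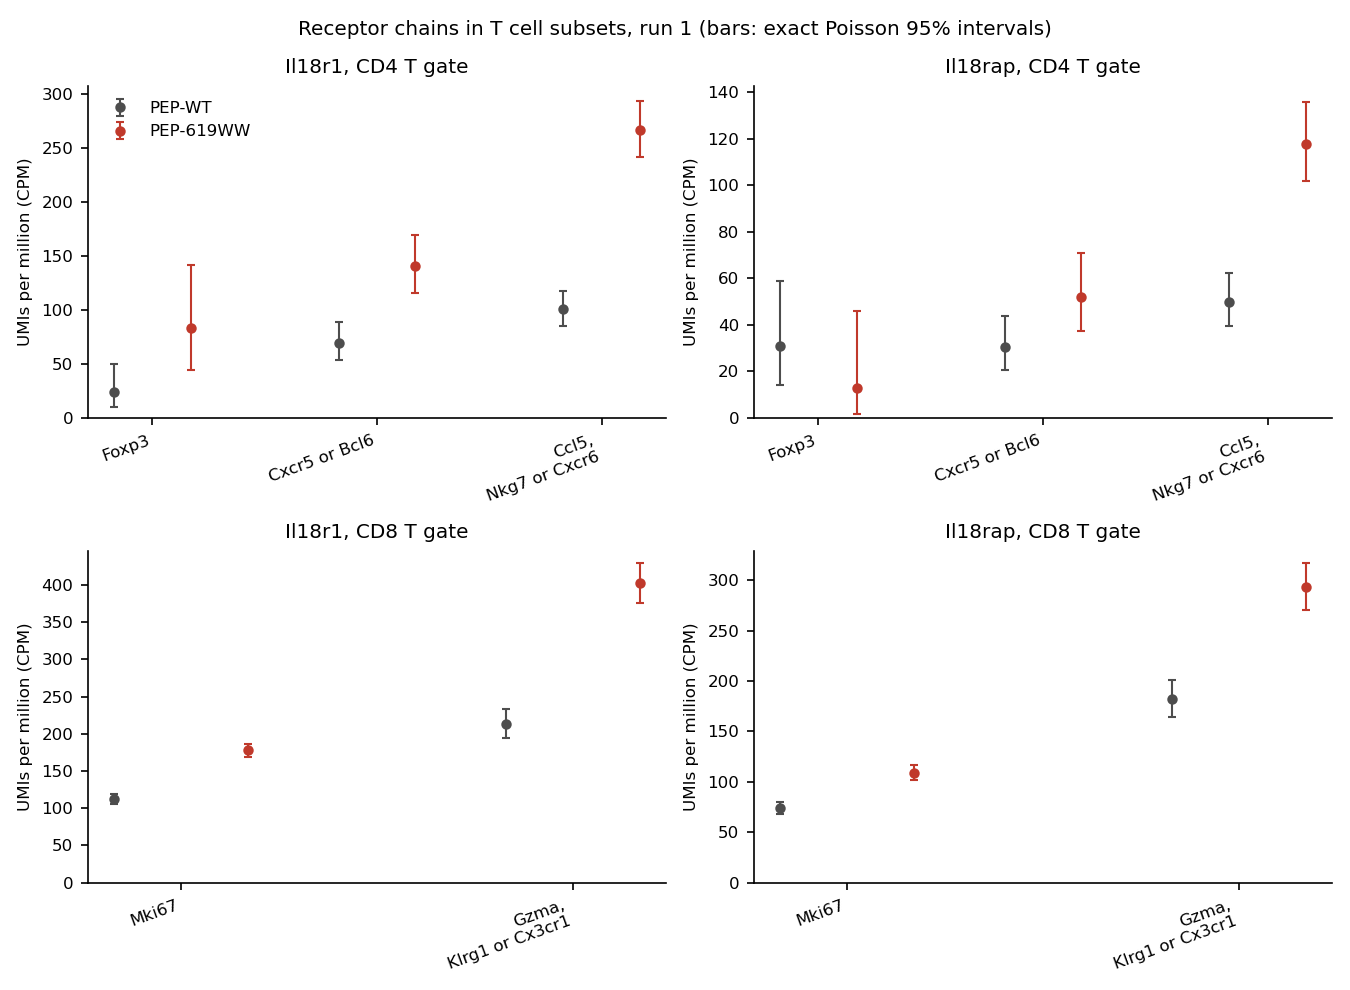
Levels of *Il18r1* (left) and *Il18rap* (right) in CPM (y axis) in 3 subsets of the CD4 T gate (top) and 2 of the CD8 T gate (bottom) of run 1, named on the x axis by the gene whose UMI defines them, PEP-WT in grey and PEP-619WW in red, with exact Poisson 95% intervals. *Il18r1* reaches 267 CPM in PEP-619WW CD4 T barcodes with *Ccl5*, *Nkg7* or *Cxcr6*, and both CD8 subsets are higher in PEP-619WW for both chains.

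In run 2 the PEP-WT subsets held at most 18 barcodes each. In its PEP-619WW library *Foxp3* barcodes were 45.2% of the CD4 T gate, against 6.9% in run 1, and held *Il18r1* at 48.1 CPM (39.8 to 57.7), below the 141 CPM (117 to 168) of the effector barcodes. *Il18rap* was 26.9 CPM and 83.1 CPM in the same barcodes. The higher level in effector than in *Foxp3* barcodes was therefore found in both runs of PEP-619WW. In the CD8 T gate of that library *Il18r1* was 62.7 CPM (51.0 to 76.4) in *Mki67* barcodes and 63.1 CPM (43.4 to 88.6) in those with *Gzma*, *Klrg1* or *Cx3cr1*. The lower CPM of *Mki67* barcodes in run 1 was thus not seen there. *Il18rap* was 30.4 CPM (22.4 to 40.3) and 68.8 CPM (48.2 to 95.3) in the same barcodes, with the *Mki67* barcodes lower. In the 18 PEP-WT *Mki67* barcodes *Il18r1* was 60.9 CPM (13 UMIs) and *Il18rap* 46.8 CPM (10 UMIs), and the log2 ratios to PEP-WT, 0.04 (-0.80 to 1.00) and -0.62 (-1.62 to 0.53), did not show the difference of run 1.

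For a list of partner genes, the level of each chain was compared between barcodes with and without a UMI of the partner in run 1. In CD4 T cells *Il18r1* was higher with *Cxcr6*, a chemokine receptor of effector and resident cells, 2.23-fold in PEP-WT (1.74 to 2.86) and 1.70-fold in PEP-619WW (1.44 to 2.01), and with *Gzmb*, a protease of cytotoxic granules, 1.86-fold and 1.57-fold. It was lower with *Foxp3*, 0.28-fold (0.11 to 0.57) and 0.39-fold (0.20 to 0.66), and with *Mki67*, 0.72-fold and 0.64-fold. *Tox* is a factor of exhausted and follicular T cells. Barcodes with *Tox* held 107 CPM and those without 46.5 CPM in PEP-WT (2.31-fold, 1.74 to 3.10), against 206 and 213 CPM in PEP-619WW (0.97-fold, 0.80 to 1.18). Whether this differs between genotypes was not tested. *Ifng*, the main target of IL-18 with IL-12, went with a 1.23-fold higher *Il18r1* in both genotypes, with intervals of 0.96 to 1.58 and 1.04 to 1.45.

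*Il18rap* in CD4 T cells was compared in the same way. It was higher with *Nkg7*, 2.91-fold in PEP-WT (1.86 to 4.71) and 2.92-fold in PEP-619WW (1.97 to 4.50), with *Gzmb*, 2.46-fold and 2.30-fold, and with *Il12rb2*, a chain of the IL-12 receptor, 2.00-fold (1.26 to 3.07) and 1.63-fold (1.24 to 2.13). It was lower with *Tcf7*, the factor of memory and stem-like T cells, 0.41-fold and 0.49-fold. In CD8 T cells *Il18rap* was higher with *Klrg1*, 1.72-fold and 1.38-fold, and with *Cx3cr1*, 1.49-fold and 1.53-fold, genes of terminal effectors, while *Il18r1* was close to even with both, 1.19-fold and 0.97-fold for *Klrg1* and 1.09-fold and 1.15-fold for *Cx3cr1*. Both chains were lower with *Mki67*, 0.60-fold and 0.46-fold for *Il18r1* and 0.61-fold and 0.46-fold for *Il18rap*. The part of depth in these ratios was not tested.

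The genes that stood out most between barcodes with and without a receptor UMI were ranked by the lower fold of the genotypes. For *Il18r1* in CD4 T cells the first 8 of 5854 genes were *Igha* and *Ighg1*, transcripts of plasma cells, then *Ccl3*, *Ccl4*, *Ifng*, *1500009L16Rik*, *Havcr2* and *Gzmb*. *Igha* was at 160.6-fold in PEP-WT and 22.4-fold in PEP-619WW, and *Ighg1* at 38.9-fold and 15.4-fold. *Ccl4* was at 4.31-fold and 4.83-fold and *Ifng* at 3.64-fold and 5.68-fold. For *Il18rap* they were *Gzma*, *Car2*, *Ighg1*, *Prf1*, *Cd8a*, *Ccl4*, *Gzmb* and *Cxcr6*, with *Gzma* at 6.52-fold and 9.95-fold and *Prf1*, perforin, at 4.19-fold and 4.22-fold. *Cd8a* was at 4.33-fold and 4.05-fold, and 57 barcodes of PEP-WT and 45 of PEP-619WW lay in both the CD4 T and the CD8 T gate. The CD4 T and the plasma cell gate shared 23 and 25 barcodes, and the part of all these shared barcodes in the lists was not tested. The part of depth in the lists was not tested either. In the CD8 T gate immunoglobulin genes and the granule genes *Mpo* and *Elane* of myeloid precursors were among the first 8 in both lists, with *Igfbp7* and *Spock2* among those of *Il18r1* and *Gzmc*, *Gzmf* and *Saa3* among those of *Il18rap*. In the NK gate *S100a8* and *S100a9*, genes of neutrophils, led both lists, and *Il18r1* itself was 4th for *Il18rap* at 2.93-fold and 2.56-fold. There 0 barcodes of PEP-WT and 1 of PEP-619WW also met the neutrophil gate.

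Across the 11 gates and both genotypes of run 1, 22 profiles that come from 2 libraries and share some barcodes, the genes with the profile most like each member were ranked by Pearson's r of log2(CPM + 10) among 12469 genes. Those of *Il18r1* were *Nr4a2*, *Il2rb*, *Gm19585*, *Sh2d2a* and *Skap1*, with r from 0.960 to 0.948, and those of *Il18rap* were *Hsd11b1*, *Hcst*, *Nbeal2*, *Sntb2* and *Lfng*, from 0.960 to 0.894. The chains had an r of 0.872 with each other, *Il18r1* being 11th for *Il18rap* and *Il18rap* 51st for *Il18r1*. Those of *Il18* were *Nr1h3*, *Calhm6*, *Procr*, *Cfb* and *Ccl12*, from 0.941 to 0.866, and those of *Il18bp* were *Ninj1*, *C4b*, *Tnfrsf21*, *Cd300c2* and *Pwwp2b*, from 0.911 to 0.861. *Il18* and *Il18bp* had an r of 0.732, and each had an r between -0.13 and -0.03 with the receptor chains.

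Genes downstream of the receptor were compared in T cells. Of 13 signalling genes, 12 had at least 50 UMIs in the CD4 T gate of run 1, 0 were past 2-fold and their median log2 ratio was 0.11, where the median over all genes was 0.00 and 1.04% of genes were higher and 1.34% lower past 2-fold. In the CD8 T gate all 13 were measured, 0 were past 2-fold and the median was 0.06, where the median over all genes was -0.01 and 0.877% were higher and 1.49% lower. Some differed beyond counting error at smaller size. *Myd88*, the adaptor, was 40.1 CPM in PEP-WT and 31.0 CPM in PEP-619WW CD8 T cells, a log2 ratio of -0.37 (-0.56 to -0.18). In CD4 T cells it was 35.7 and 40.8 CPM, and its interval there, -0.19 to 0.58, held 0. *Tab2*, which links receptor complexes to the kinase TAK1, was 65.8 and 79.1 CPM in CD8 T cells (0.27, 0.13 to 0.40). *Irak1*, a kinase of the receptor complex, was 59.8 and 69.4 CPM in CD8 T cells (0.21, 0.08 to 0.35), while its interval in CD4 T cells, -0.18 to 0.40, held 0. *Nfkbia*, an inhibitor and target of NF-κB, was 433 and 363 CPM in CD4 T cells, a log2 ratio of -0.25 (-0.37 to -0.14).

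Of 11 genes that act with IL-18 in the induction of interferon gamma, 8 were measured in the CD4 T gate, 1 was higher past 2-fold and 0 were lower, with a median of 0.28, where 1.04% and 1.34% of all genes were and their median was 0.00. That gene was *Il12rb2*, at 8.77 CPM in PEP-WT and 20.8 CPM in PEP-619WW (29 and 58 UMIs), a log2 ratio of 1.24 (0.58 to 1.94). *Ifng* was 105 and 148 CPM in CD4 T cells (0.50, 0.29 to 0.71) and 190.0 and 239 CPM in CD8 T cells (0.33, 0.26 to 0.41), and 117 and 90.9 CPM in NK cells, where 42 and 19 UMIs did not set them apart. *Eomes*, a T-box factor, was 40.9 and 22.3 CPM in CD8 T cells (-0.88, -1.09 to -0.67). In the CD8 T gate 10 of the 11 were measured, 0 were higher and 1 was lower past 2-fold, *Il12a* with 41 and 16 UMIs, where 0.877% and 1.49% of all genes were. The NK gate, where 2.62% and 4.36% were, measured 3 signalling, 2 maturation and 4 interferon gamma genes with 0 past 2-fold, and none of the IL-1 family.

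In the IL-1 family list, 3 of 10 genes were measured in the CD4 T gate, of which 1 was higher past 2-fold, where 1.04% of all genes were. It was *Il1rl1*, the neighbour of *Il18r1*, at 17.2 CPM in PEP-WT and 35.1 CPM in PEP-619WW (57 and 98 UMIs), a log2 ratio of 1.03 (0.54 to 1.52), and in CD8 T cells it was 10.7 and 14.5 CPM (0.44, 0.12 to 0.76). *Il1b*, the other cytokine that caspase-1 cleaves, was 544 and 336 CPM in the *Lyz2* gate of run 1 (-0.70, -0.75 to -0.64), and *Il1rn*, the IL-1 receptor antagonist, was 41.8 and 25.2 CPM (-0.73, -0.92 to -0.54), so both were lower in PEP-619WW as *Il18* was. In run 2 they were higher, with *Il1b* at 58.2 and 422 CPM and *Il1rn* at 143 and 204 CPM. In the *Lyz2* gate 8 of the 10 were measured, with 1 higher and 0 lower past 2-fold in run 1, where 1.11% and 1.28% of all genes were, and 5 higher and 1 lower in run 2, where 12.5% and 8.94% were.

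Of the genes that mature the cytokine, all 9 were measured in the *Lyz2* gate of run 1, 0 were past 2-fold and the median log2 ratio was -0.25, where that of all genes was -0.07 and 1.11% were higher and 1.28% lower past 2-fold. *Casp1* was 80.3 CPM in PEP-WT and 67.7 CPM in PEP-619WW (-0.25, -0.37 to -0.12), *Casp4*, of the noncanonical inflammasome, was 71.3 and 49.4 CPM (-0.53, -0.67 to -0.39), *Nlrp3*, the sensor, was 34.4 and 28.6 CPM (-0.27, -0.46 to -0.07), and *Gsdmd*, which forms the pore, was 65.2 and 55.9 CPM. In run 2 the median was 0.48 where that of all genes was 0.12, with 1 of the 9 higher past 2-fold, *Nlrp3* at 21.0 and 42.7 CPM, while *Casp1* was 41.7 and 43.1 CPM with an interval that held 0. In the T cell gates of run 1 the same list had 6 genes measured in CD4 T cells with 0 past 2-fold and a median of -0.18, and 8 in CD8 T cells with 1 lower, *Nlrp3* at 5.33 and 2.39 CPM, and a median of -0.47, where 1.34% and 1.49% of all genes were lower past 2-fold in these gates. In CD8 T cells 6 of the IL-1 family were measured and 1 was lower, *Il1b* at 77.1 and 19.2 CPM. In the *Lyz2* gate the 13 signalling genes had 0 past 2-fold in run 1 (median -0.06) and 4 higher in run 2 (median 0.76), among them *Myd88* at 36.9 and 86.2 CPM. The interferon gamma genes had 1 of 10 lower in run 1, *Eomes* with 72 and 22 UMIs, and 8 of 10 higher in run 2 (median 2.90). Of those higher, *Stat4*, *Il15ra* and *Il2rb* had 103, 182 and 94 UMIs in the PEP-WT *Lyz2* gate. *Tbx21*, *Eomes*, *Ifng*, *Il12b* and *Il12rb2* had 8, 17, 18, 32 and 46 there, against 76, 136, 65, 257 and 72 in PEP-619WW. These met the UMI minimum, set over both genotypes, by their PEP-619WW UMIs. The count and median of run 2 thus rest in part on genes admitted by the difference itself. Among all genes of that gate 12.5% were higher past 2-fold in run 2, with a median of 0.12, and its T cell and NK markers were higher too.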

How the data were processed

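The files hold counts: the authors deposited raw UMI counts for 32285 genes per barcode, made with Cell Ranger (version 6.0.0 in the submitters' processing notes, a later one in the methods) on the mm10 reference, with no normalization. Symbols were matched by identifier for 32158 genes. UMIs were summed per gate and library, divided by the gate's total UMIs and given per 1000000 (CPM). Depth was 55504449 to 77916082 UMIs per library. Sums carry exact Poisson, shares Clopper-Pearson and ratios exact conditional 95% intervals. Their computation was checked on counts drawn from the Poisson and binomial models they assume, which cannot show how well they suit these data. Thinned shares are hypergeometric expectations at 1000 or 2000 UMIs, shallower barcodes left out. Background folds used genes with at least 50 UMIs over both genotypes. No barcode filter or doublet caller was applied. The members, gene lists and gates were chosen with earlier results of these data known. Named genes were the members, the listed pathway and partner genes, the 5 genes most like each member and the 8 leading genes by receptor UMI. A gene of the lists and the subsets it sets are not reported here. Replicates were absent, so no test was made between genotypes. Intervals came from scipy 1.17.1, tables from pandas 2.3.3 with numpy 2.4.6 and plots from matplotlib 3.10.9, under python 3.11.15.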

Additional observations from a re-analysis of the deposited data

Results flagged for a closer look

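The inhibitor gene *Il18bp* moved in opposite directions in the runs. In the *Lyz2* gate its log2 ratio of PEP-619WW to PEP-WT was 0.28 (0.17 to 0.40) in run 1 and -1.001 (-1.18 to -0.83) in run 2. The difference between the runs was not tested, as each run holds 1 library per genotype.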

How the results depend on the processing

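Of the recomputed log2 ratios of the receptor genes in T and NK cells of run 1 and of *Il18* and *Il18bp* in the *Lyz2* gates, 72 stayed within the counting interval of the reported value and 12 did not. The ratios of *Il18r1* and *Il18rap* in the CD4 T, CD8 T and NK gates of run 1 stayed above 0 in every alternative run. The exceptions in size were, for *Il18r1* in CD4 T cells, 0.98 with a stricter gate and 1.09 without the 5% of barcodes with the most UMIs; for *Il18rap*, 0.81 with the stricter gate. In CD8 T cells *Il18r1* was 0.92 as a mean over barcodes and 0.95 without UMIs of another lineage, and *Il18rap* 0.85 there. In the *Lyz2* gate of run 1, *Il18* was -1.38 as a mean over barcodes and -1.02 without the 5%, and *Il18bp* 0.091 as a mean over barcodes. In run 2, *Il18* was -0.17 by the median of ratios, 0.30 as a mean over barcodes and 0.14 without the 5%. The difference in the share of barcodes with a UMI of *Il18* in run 2, -3.52 points, turned to 0.642 at 1000 and 0.993 at 2000 UMIs per barcode. The share of genes past the fold, in the CD4 T, CD8 T and *Lyz2* (run 1) gates, was 4.92%, 4.71% and 4.44% at 20 UMIs, 1.41%, 1.40% and 1.59% at 100 UMIs, and 13.0%, 8.60% and 8.89% at 1.5-fold. In the NK gate it was 11.9% at 20 UMIs and 21.6% at 1.5-fold, and in the *Lyz2* gate of run 2 38.7% at 1.5-fold. Of the other log2 ratios 61 stayed within their interval and 9 did not. These were *Il18r1* in the CD8 T gate of run 2, 1.67 without the 5%; in the *Lyz2* gate of run 1, *Il18r1* at 0.85 as a mean over barcodes, 1.20 without UMIs of another lineage and 0.67 without the 5%, and *Il18rap* at 0.88 without UMIs of another lineage; in that of run 2, *Il18r1* at 4.45 as a mean over barcodes and 4.62 without UMIs of another lineage, and *Il18rap* at 2.55 as a mean over barcodes; and *Il18r1* in neutrophils of run 1, 0.62 without UMIs of *Cd3e*, *Cd79a* or *Ncr1*. Of the differences in the share of barcodes with a UMI, 12 were smaller beyond counting error once thinned and 6 stayed within it. The 2 for *Il18* in run 2 turned, as given above, and that for *Il18bp* in the *Lyz2* gate of run 1 also crossed 0, within counting error, from -0.342 points to 0.0915 at 1000 and 1.10 at 2000 UMIs. The cause of these moves was not tested. No paired analysis was possible because each genotype is 1 library per run. Each ratio rests on 1 pool of mice per genotype, and those of the NK gate of run 1 on 77 and 37 barcodes.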
